A study of Sus scrofa with 12 samples.

Results

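Calpains, their inhibitor calpastatin, the cathepsins and legumain were followed in pig muscle over the first day after slaughter. All probe sets whose only gene symbol was CAPN with a number, CTS with 1 letter, CAST or LGMN were taken, whatever their values. That gave 26 probe sets of 16 genes, of 24123 probe sets on the array. CAST had 5 probe sets, CTSC 4, CTSS 3 and CAPN3 2, and the other 12 genes (CAPN1, CAPN2, CAPN7, CAPN10, CTSB, CTSD, CTSH, CTSK, CTSV, CTSW, CTSZ and LGMN) had 1 each.

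The samples came from the semimembranosus, a muscle at the back of the thigh, in 3 female commercial hybrid pigs of about 160 kg that were reared on the same farm and stunned with CO2 at 87%. Portions of 3 to 5 g were taken from the left leg of each animal at 20 min, 2 h, 6 h and 24 h after death, while the carcass was cooled to 4 °C. Every portion had an Affymetrix porcine array to itself, which gave 12 arrays, 3 at each time. The 4 groups therefore hold the same 3 animals and differ in time after death and, with it, in cooling.

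Calpains are calcium-dependent cysteine proteases of the cytosol that cleave proteins holding the sarcomere together, and calpastatin binds and inhibits them. In meat, the balance of calpain and calpastatin is a main determinant of how far a muscle tenderises after death. Cathepsins are proteases of the lysosome, and legumain is a lysosomal enzyme that cuts after asparagine and matures several cathepsins.

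The arrays were alike: on the log2 scale, array medians ran from 5.89 to 5.94, and any pair of arrays correlated with r between 0.986 and 0.997. The tissue label was checked with 13 of 17 muscle fibre markers that were on the array, whose mean level lay between 14.08 and 14.17 on all 12 arrays. All levels are log2 RMA intensities, and since the arrays were normalised to 1 distribution, a change shared by all transcripts would not be seen. In portions of whole muscle, fewer cells of a type and less RNA per cell cannot be told apart. Levels are compared only within a probe set, not between probe sets. Of the 26 probe sets, 3 (CAST Ssc.235.2.S2_at and Ssc.235.3.A1_at, and CTSS Ssc.17203.2.S1_at) were among the dimmest 40% on the array.

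At 24 h most of these transcripts read lower than at 20 min, among them LGMN, CTSV, CTSS and several probe sets of CAST and CTSC, but no member passed the test in any comparison. In 1 limma model with pig as a block, the 2 h, 6 h and 24 h arrays were each set against those of 20 min, and neighbouring later times against each other. P-values were adjusted by Benjamini-Hochberg over 23999 probe sets. At an adjusted p under 0.05, the limma F test for any time difference called 0 members, with 0.00417% of all probe sets called, and the comparison of 24 h with 20 min likewise called 0 members, with 0.00417% of all probe sets called. The other 4 pairs of times had 0% of all probe sets called and 0 members. At an unadjusted p under 0.05, limma called 2 members at 2 h, both lower (7.95% of all probe sets called, 3.94% lower), 2 at 6 h, both lower (8.83%, 4.54% lower), 11 at 24 h (13.1%), 0 for 6 h against 2 h (2.26%), 6 for 24 h against 6 h (8.08%) and 5 in the F test (8.22%). The comparisons with 20 min share the 20 min arrays, and those of 24 h share the 24 h arrays, so the counts are not independent of each other.

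The 24 h samples held most of the unadjusted calls, and 10 of the 11 were lower at 24 h than at 20 min (6.67% of all probe sets called lower). They belonged to 5 genes: CAST with 3 probe sets, CTSC with 3, CTSS with 2, CTSV and LGMN. The mean was lower at 24 h in 21 of the 26 probe sets, against 48% of all probe sets. The median log2 change over the 26 was -0.16, and over all probe sets it was 0.0082. Several probe sets share a gene, and by the brightest probe set of each gene, 12 of 16 were lower, with a median of -0.10. In 9 probe sets of 6 genes the level was lower in 3 of 3 pigs, against 16.7% of all probe sets. The member count rested in part on pig 3. Without pig 3, 4 members were called lower, with 3.74% of all probe sets called. Without the 20 min array of pig 3, 5 were called lower (4.35% of all), and without its 24 h array, 3 were (3.86%). Without pig 1, 6 were called lower (5.59%), and without its 24 h array, 6 were (5.03%). Without the pig block, 1 was called lower, with 2.42% of all probe sets called, and with the block as a random effect, 5 were (4.97%). With 1 probe set per gene, 3 of 16 members were called lower, or 18.8%, against 9.8% of all. Without the dimmest 40% of probe sets, 7 of 23 members were, or 30.4%, against 9.29% of all.

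**Figure D1:**
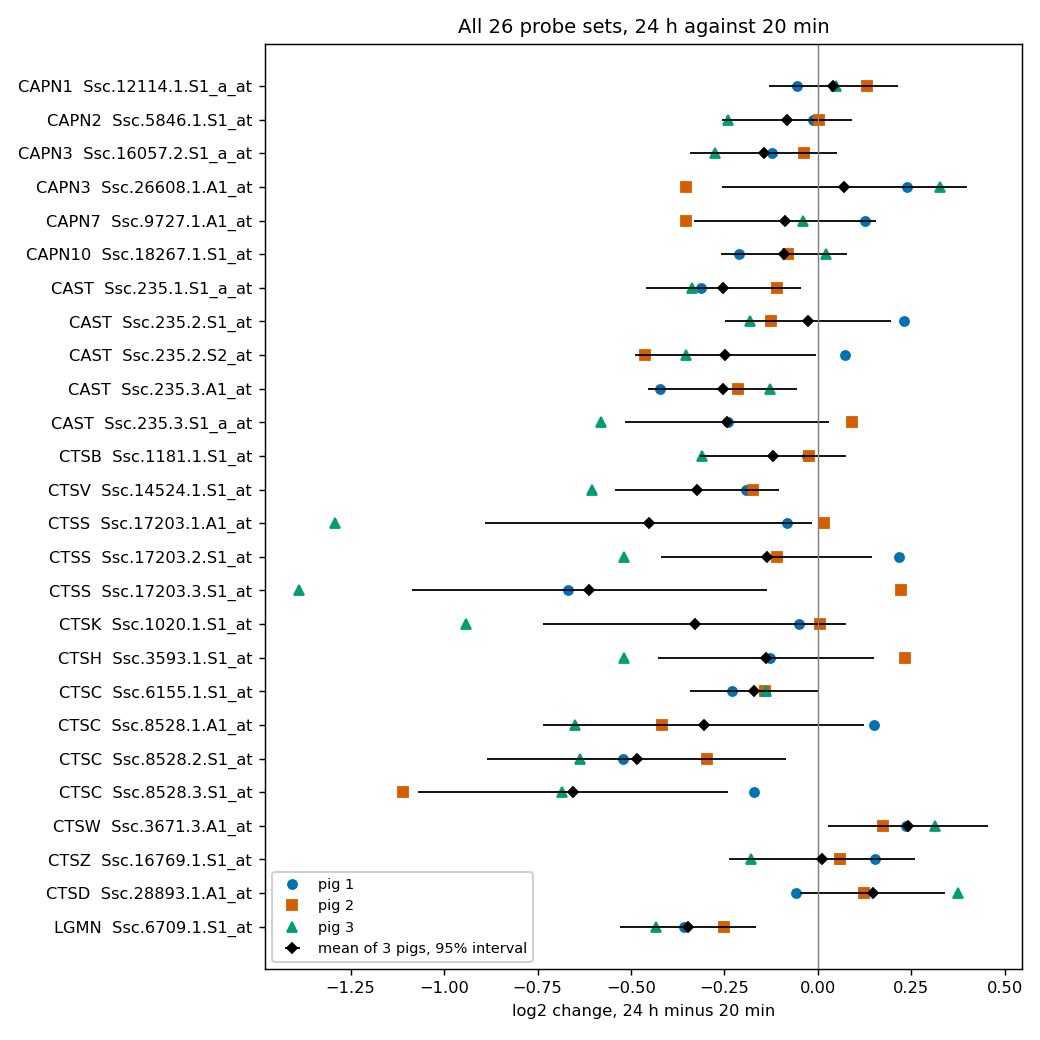
The log2 change at 24 h against 20 min (x axis) of each of the 26 probe sets (y axis). Coloured symbols are the 3 pigs, and black diamonds with bars are the mean and its 95% interval from the limma fit. Most diamonds sit left of 0 (21 of 26), and pig 3 holds the far left points of CTSS and CTSK.

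In CTSC the difference between animals was far wider than that between times. CTSC encodes cathepsin C, also called dipeptidyl peptidase I, which activates the granule serine proteases of leukocytes. In all 4 of its probe sets and at all 4 times, 16 of 16 combinations, the level was highest in pig 3, intermediate in pig 2 and lowest in pig 1. Each pig is 1 animal, so this is a description of 3 animals with no test.

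Over the 4 times, the level of CTSC Ssc.8528.2.S1_at averaged 9.80 for pig 3, 8.51 for pig 2 and 7.02 for pig 1. Pig 3 thus exceeded pig 1 by 2.78 on the log2 scale, or 6.87-fold, which was a wider spread between pigs than in 99.9% of probe sets. The same spread was 2.64 for Ssc.8528.1.A1_at (6.25-fold), 2.37 for Ssc.8528.3.S1_at (5.18-fold) and 1.67 for Ssc.6155.1.S1_at, the brightest (3.18-fold). At single times, pig 3 over pig 1 ranged from 3.06-fold to 8.99-fold. Among the other 15 genes the widest spread between pig means was 0.79, in CAPN3 Ssc.26608.1.A1_at. A spread of more than 1 was found in 1.36% of all probe sets, and among the members in the 4 of CTSC alone.

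The 4 arrays of each pig lay fully apart from those of both other pigs in 3 of the 4 CTSC probe sets and in CAST Ssc.235.3.S1_a_at, against 1.59% of all probe sets. The exception among CTSC, Ssc.8528.3.S1_at, had 6.76 in pig 2 at 20 min, just above the 6.73 of pig 3 at 2 h. The order pig 3, pig 2, pig 1 with the arrays apart occurred in 0.271% of all probe sets. Over the 4 times, the mean level of the 19 macrophage and leukocyte markers on the array was 5.97 for pig 3, 6.00 for pig 2 and 6.17 for pig 1. At 20 min alone, pig 3 was the highest for these markers, with 6.34, against 5.88 for pig 2 and 6.14 for pig 1. The part of leukocyte content in the CTSC order was not tested.

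**Figure D2:**
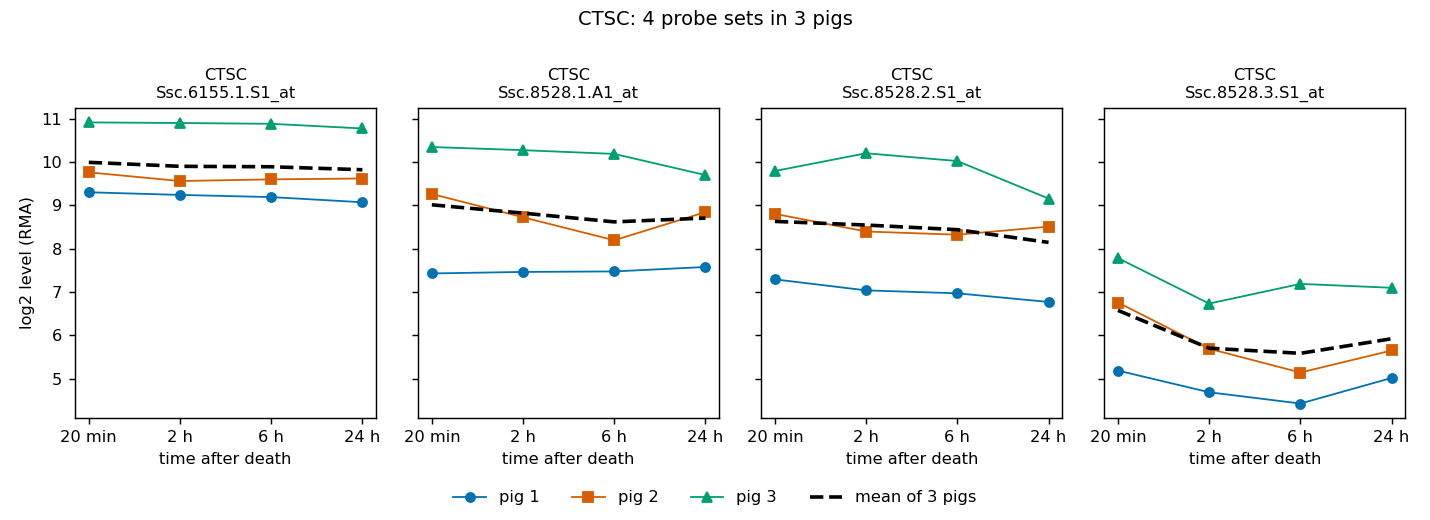
The log2 RMA level of CTSC (y axis) against time after death (x axis), 1 panel per probe set on a common axis, 1 line per pig and a dashed line for the mean of 3 pigs. Pig 3 is the top line and pig 1 the bottom line in every panel, with a spread between pig means of 1.67 to 2.78.

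Over time, the CTSC probe sets differed from each other. In Ssc.8528.3.S1_at, the levels in pigs 1, 2 and 3 were 5.18, 6.76 and 7.78 at 20 min, then 4.68, 5.69 and 6.73 at 2 h, 4.42, 5.14 and 7.19 at 6 h, and 5.01, 5.65 and 7.10 at 24 h. Every later array was below the 20 min array of its own pig, although the groups of each later time overlapped that of 20 min because of the distance between pigs. The log2 change was -0.87 ± 0.32 at 2 h, -0.99 ± 0.55 at 6 h and -0.66 ± 0.47 at 24 h (SD, n = 3 pigs). The limma adjusted p was 0.579 at 2 h, 0.454 at 6 h and 0.241 at 24 h, and without pig 2 the 24 h change was -0.43. Its F test p ranked 35th of the 23999 probe sets, with an adjusted p of 0.535.

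The brightest CTSC probe set, Ssc.6155.1.S1_at, had smaller changes. Its levels in pigs 1, 2 and 3 were 9.30, 9.77 and 10.92 at 20 min, 9.24, 9.56 and 10.91 at 2 h, 9.19, 9.60 and 10.89 at 6 h, and 9.07, 9.62 and 10.78 at 24 h. Its log2 changes were -0.092, -0.10 and -0.17 at 2 h, 6 h and 24 h, and at 24 h the limma adjusted p was 0.380. The change of Ssc.8528.3.S1_at was lower than that of Ssc.6155.1.S1_at by a difference of -0.78 ± 0.31 at 2 h and -0.89 ± 0.49 at 6 h (SD, n = 3 pigs), in 3 of 3 pigs at both times. At 24 h the difference was -0.48 ± 0.52, and pig 1 went the other way at 0.059.

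The remaining CTSC probe sets lay between. Ssc.8528.1.A1_at had 7.43, 9.27 and 10.35 in pigs 1, 2 and 3 at 20 min, 7.46, 8.73 and 10.28 at 2 h, 7.48, 8.20 and 10.19 at 6 h, and 7.58, 8.85 and 9.70 at 24 h. Ssc.8528.2.S1_at had 7.29, 8.81 and 9.80 at 20 min, 7.04, 8.40 and 10.21 at 2 h, 6.97, 8.32 and 10.03 at 6 h, and 6.77, 8.51 and 9.16 at 24 h. Only the second of these was lower at 24 h in 3 of 3 pigs, with a log2 change of -0.49 ± 0.17 (SD, n = 3 pigs) and a limma adjusted p of 0.313, and it was -0.26 without the 24 h array of pig 3. The change of Ssc.8528.1.A1_at at 24 h was -0.31 ± 0.41, with pig 1 higher by 0.15, and leaving out the 24 h array of pig 3 gave -0.075, and leaving out pig 1 gave -0.53. The mean of the 4 CTSC probe sets had a log2 change of -0.40 at 24 h.

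Among the calpains, CAPN1 and CAPN2 encode the catalytic subunits of µ-calpain and m-calpain, the calpains best known from meat tenderisation. CAPN1 had 7.90, 7.86 and 8.22 in pigs 1, 2 and 3 at 20 min, 7.95, 7.92 and 8.41 at 2 h, 7.92, 7.98 and 8.41 at 6 h, and 7.84, 7.99 and 8.27 at 24 h. CAPN2 had 10.23, 10.45 and 10.76 at 20 min, 10.19, 10.54 and 10.66 at 2 h, 10.28, 10.51 and 10.72 at 6 h, and 10.22, 10.45 and 10.52 at 24 h. Pig 3 was the highest at every time in both genes, and the groups of all times overlapped. At 24 h the log2 change was 0.041 for CAPN1 (95% interval -0.13 to 0.21) and -0.084 for CAPN2 (95% interval -0.26 to 0.090). With limma, the adjusted p was 0.845 for CAPN1 and 0.668 for CAPN2.

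CAPN3 encodes the muscle-specific calpain that binds titin, and its probe sets went opposite ways late in the series. The brighter one, Ssc.16057.2.S1_a_at, had 12.03, 12.24 and 11.96 in pigs 1, 2 and 3 at 20 min, 12.05, 12.05 and 11.99 at 2 h, 12.06, 12.27 and 11.93 at 6 h, and 11.91, 12.20 and 11.69 at 24 h. The other, Ssc.26608.1.A1_at, had 8.36, 9.20 and 7.88 at 20 min, 8.04, 8.69 and 7.91 at 2 h, 8.39, 8.41 and 7.98 at 6 h, and 8.59, 8.85 and 8.21 at 24 h. Between 24 h and 6 h, Ssc.26608.1.A1_at was higher at 24 h in 3 of 3 pigs, with a log2 change of 0.29, while Ssc.16057.2.S1_a_at was lower in 3 of 3 pigs, with -0.15.

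The difference between those changes was 0.44 ± 0.078 (SD, n = 3 pigs), and it was positive in each pig. Neither change passed the limma test, with an adjusted p of 0.663 for Ssc.26608.1.A1_at and 0.706 for Ssc.16057.2.S1_a_at. Against 20 min, the 24 h changes were 0.071 for Ssc.26608.1.A1_at and -0.15 for Ssc.16057.2.S1_a_at, and without pig 3 they were -0.057 and -0.080. The change of Ssc.26608.1.A1_at was also -0.074 without the 20 min array of pig 3, -0.014 without pig 1 and 0.28 without pig 2. Over the 12 arrays, which come from 3 pigs and are not independent, the pig-centred values of the probe sets correlated with r = -0.38, given as a description.

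The 2 other calpains, CAPN7 and CAPN10, atypical calpains without the calcium-binding domain of CAPN1, had 1 probe set each. CAPN7 lay between 8.19 and 8.70 on the 12 arrays, and CAPN10 between 7.72 and 7.93. Their log2 changes at 24 h were -0.088 and -0.089, with limma adjusted p-values of 0.756 and 0.632. CAPN10 had the narrowest spread between pigs of all members, 0.030.

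Calpastatin, encoded by CAST, was read by 5 probe sets, and all 5 had a lower mean at 24 h than at 20 min, although the brightest turned to 0.0076 with cyclic loess and 0.0072 when centred on the brightest 10% of probe sets. The brightest, Ssc.235.2.S1_at, had 9.89, 10.13 and 10.73 in pigs 1, 2 and 3 at 20 min, 10.13, 9.95 and 10.53 at 2 h, 10.20, 10.03 and 10.53 at 6 h, and 10.12, 10.01 and 10.54 at 24 h. Its log2 change at 24 h was -0.026 ± 0.22 (SD, n = 3 pigs), with pig 1 higher, and the limma adjusted p was 0.933.

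The other CAST probe sets had changes close to each other at 24 h. Ssc.235.1.S1_a_at had 8.70, 8.60 and 9.16 in pigs 1, 2 and 3 at 20 min, 8.63, 8.40 and 9.18 at 2 h, 8.73, 8.76 and 9.10 at 6 h, and 8.39, 8.49 and 8.82 at 24 h. It was lower at 24 h than at 20 min in each of the 3 pigs, the mean log2 change being -0.25 ± 0.13 (SD, n = 3 pigs), with a limma adjusted p of 0.311. Against 6 h it was lower by -0.30 ± 0.036 in 3 of 3 pigs, with a limma adjusted p of 0.589.

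Ssc.235.3.S1_a_at had 7.11, 7.40 and 8.11 at 20 min, 7.30, 7.33 and 7.99 at 2 h, 7.30, 7.50 and 7.94 at 6 h, and 6.87, 7.50 and 7.53 at 24 h. Its change at 24 h was -0.24, with pig 2 higher, and it was -0.075 without pig 3, -0.13 without the 20 min array of pig 3 alone and -0.41 without pig 2. The dim Ssc.235.3.A1_at had 3.98, 3.60 and 3.60 at 20 min, 3.95, 3.65 and 3.57 at 2 h, 3.71, 3.68 and 3.64 at 6 h, and 3.56, 3.38 and 3.47 at 24 h. All 3 of its 24 h arrays lay below all 3 of its 20 min arrays, which held for 2 members, the other being CTSV, and for 4.72% of all probe sets.

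The dim Ssc.235.2.S2_at differed in timing. It had 4.53, 4.83 and 5.11 in pigs 1, 2 and 3 at 20 min, 4.31, 4.63 and 4.63 at 2 h, 4.26, 4.39 and 4.74 at 6 h, and 4.60, 4.37 and 4.76 at 24 h. Its log2 change was -0.30 at 2 h and -0.36 at 6 h, lower in 3 of 3 pigs at both times, and -0.25 at 24 h, where pig 1 was higher. Adjusted p-values from limma were 0.608, 0.495 and 0.376 at the 3 times. The 24 h change was -0.14 without pig 2 and -0.41 without pig 1. This probe set and CTSC Ssc.8528.3.S1_at were the 2 members called at an unadjusted p under 0.05 at 2 h, and again at 6 h. The probe sets of CAST correlated with the brightest with r between -0.31 and 0.35 over the 12 pig-centred arrays, given as a description.

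**Figure D3:**
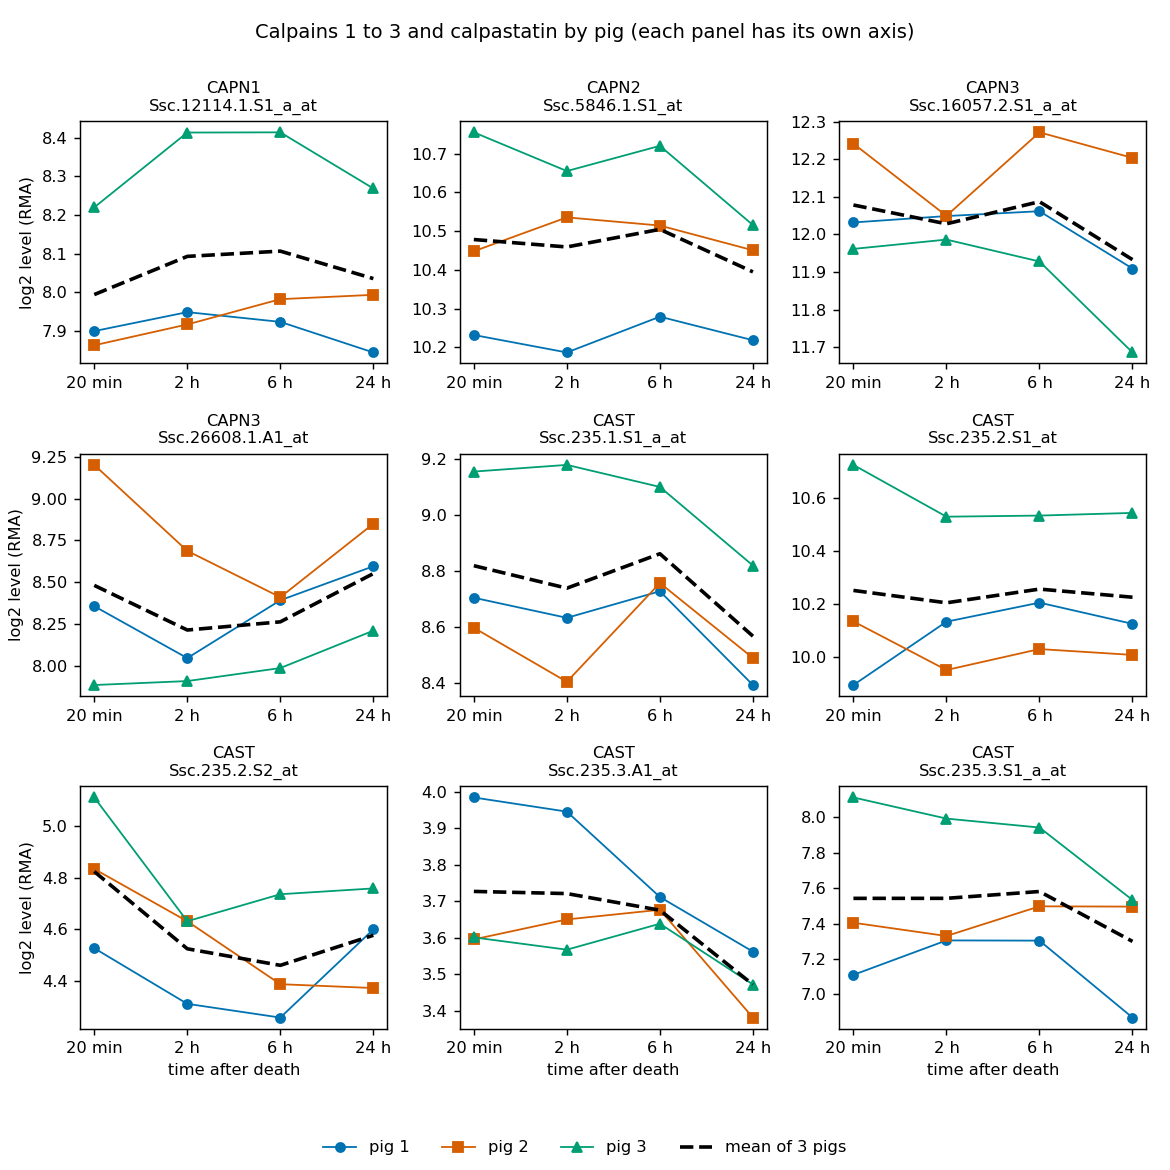
The log2 RMA level (y axis, a separate range in each panel) of CAPN1, CAPN2, both CAPN3 probe sets and the 5 CAST probe sets against time after death (x axis), 1 line per pig and a dashed line for the mean of 3 pigs. Between 24 h and 6 h the CAPN3 panels run opposite ways, with log2 changes of 0.29 and -0.15, and the brightest CAST probe set, Ssc.235.2.S1_at, stays near level, with -0.031.

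Of the cathepsins of muscle lysosomes, CTSB encodes the abundant cysteine protease cathepsin B, and CTSD the aspartic protease cathepsin D. CTSB had 11.08, 11.03 and 11.56 in pigs 1, 2 and 3 at 20 min, 11.17, 10.96 and 11.39 at 2 h, 11.09, 11.12 and 11.31 at 6 h, and 11.05, 11.01 and 11.25 at 24 h. CTSD had 9.55, 9.53 and 9.52 at 20 min, 9.57, 9.64 and 9.74 at 2 h, 9.56, 9.67 and 9.67 at 6 h, and 9.50, 9.66 and 9.89 at 24 h. The CTSB groups overlapped at all times. All CTSD arrays at 2 h and at 6 h lay above those at 20 min, pig 1 by only 0.016 at 2 h and 0.00082 at 6 h. At each of these times that held for 3.85% of the members, against 4.2% of all probe sets at 2 h and 4.24% at 6 h. The log2 change at 24 h was -0.12 for CTSB, lower in 3 of 3 pigs, and 0.15 for CTSD, higher in 2 of 3 pigs. The limma adjusted p was 0.577 for CTSB and 0.491 for CTSD, and without pig 3 the 24 h change was -0.026 for CTSB and 0.033 for CTSD.

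CTSV, for which the pig gene table lists CTSL among the synonyms, belongs to the cathepsin L group of cysteine proteases. It had 11.25, 11.25 and 11.36 in pigs 1, 2 and 3 at 20 min, 11.23, 11.01 and 11.16 at 2 h, 11.25, 11.06 and 11.10 at 6 h, and 11.06, 11.07 and 10.76 at 24 h. The 24 h arrays all lay below the 20 min arrays, with pig 3 lowest. The log2 change at 24 h was -0.32 ± 0.24 (SD, n = 3 pigs), lower in 3 of 3 pigs, with a limma adjusted p of 0.260. Without pig 3 it was -0.18.

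CTSS encodes cathepsin S, a protease of antigen-presenting cells. Its probe set Ssc.17203.3.S1_at, with the smallest F test p of the gene, had 6.77, 5.87 and 6.93 in pigs 1, 2 and 3 at 20 min, 6.65, 6.05 and 6.32 at 2 h, 7.07, 6.49 and 6.39 at 6 h, and 6.10, 6.09 and 5.55 at 24 h. The 24 h arrays all lay below the 6 h arrays, and the log2 change against 6 h was -0.73 ± 0.30 (SD, n = 3 pigs), with a limma adjusted p of 0.575. Against 20 min the change was -0.61 ± 0.81 (SD, n = 3 pigs), with pig 2 higher. It was -0.22 without pig 3, -0.30 without the 20 min array of pig 3 alone and -1.03 without pig 2.

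The brightest CTSS probe set, Ssc.17203.1.A1_at, had 8.17, 7.74 and 8.69 at 20 min, 8.33, 8.09 and 8.24 at 2 h, 8.52, 8.11 and 8.02 at 6 h, and 8.09, 7.76 and 7.40 at 24 h. At 24 h against 20 min pig 3 was lower by a change of -1.29, pig 1 by -0.081, and pig 2 was higher by 0.017. Without pig 3 the mean change was -0.032. Against 6 h, all 3 pigs were lower, with a mean of -0.47 ± 0.14 (SD, n = 3 pigs) and a limma adjusted p of 0.617, and without the 24 h array of pig 3 that mean was -0.24. The dim Ssc.17203.2.S1_at lay between 3.61 and 4.20.

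Legumain had the smallest p of all members at 24 h. LGMN had 9.75, 9.35 and 9.50 in pigs 1, 2 and 3 at 20 min, 9.80, 9.28 and 9.37 at 2 h, 9.85, 9.36 and 9.31 at 6 h, and 9.39, 9.10 and 9.07 at 24 h. At 6 h the log2 change from 20 min was 0.096 in pig 1 and 0.010 in pig 2, while pig 3 was already lower, at -0.20. The 24 h array was the lowest of every pig, although pig 1 at 24 h overlapped pig 2 at 20 min. The log2 change was -0.35 ± 0.091 at 24 h against 20 min and -0.32 ± 0.12 against 6 h (SD, n = 3 pigs). In limma the adjusted p was 0.193 against 20 min and 0.572 against 6 h. Without pig 3 the 24 h change was -0.30.

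**Figure D4:**
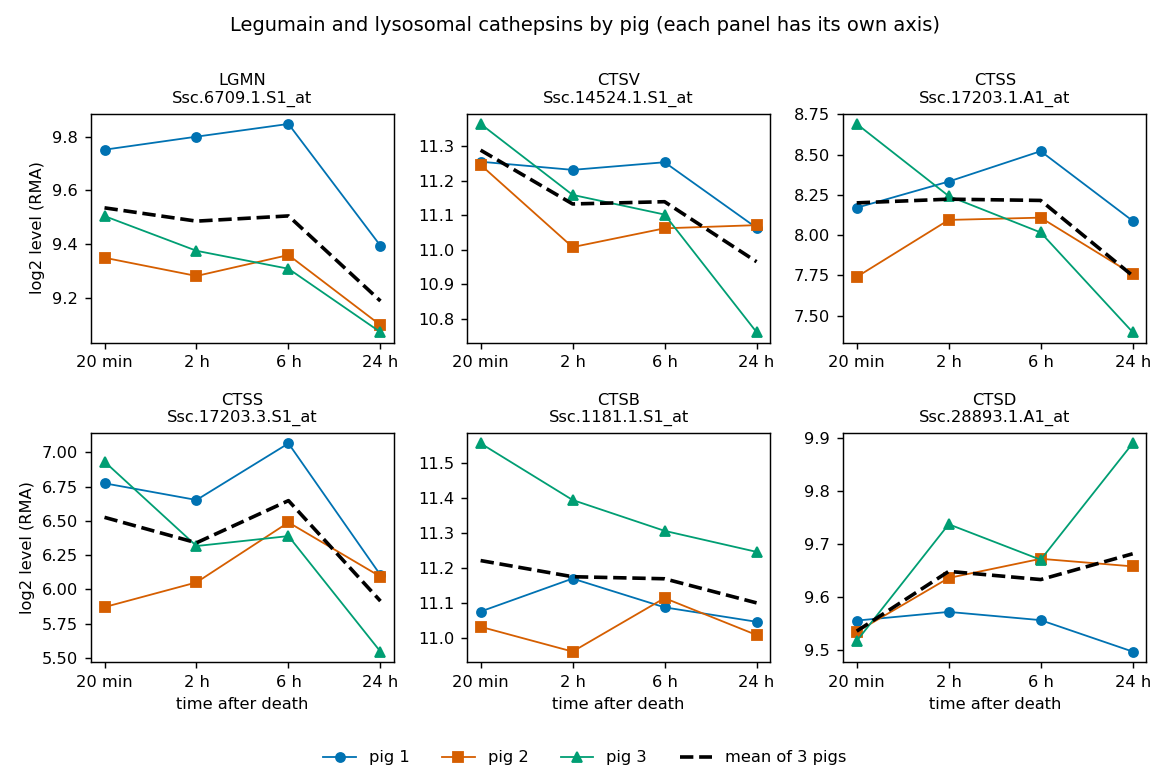
The log2 RMA level (y axis, a separate range in each panel) of LGMN, CTSV, CTSS Ssc.17203.1.A1_at and Ssc.17203.3.S1_at, CTSB and CTSD against time after death (x axis), 1 line per pig and a dashed line for the mean of 3 pigs. The LGMN lines of all 3 pigs end at their lowest point at 24 h, with a log2 change of -0.35 from 20 min.

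The remaining cathepsins were CTSK, CTSH, CTSW and CTSZ. CTSK, which encodes a collagen-degrading protease best known from osteoclasts, had 8.78 in pig 3 at 20 min and between 7.47 and 8.17 on the other 11 arrays. Its log2 change at 24 h was -0.33 ± 0.53 (SD, n = 3 pigs), and -0.022 without pig 3. CTSH, an aminopeptidase, likewise had its highest level, 8.27, in pig 3 at 20 min, and had a log2 change of -0.14 at 24 h. Without the 20 min array of pig 3 the CTSH change was 0.057, without pig 3 it was 0.052, and without pig 2 it was -0.32. CTSW, known from cytotoxic lymphocytes, was the single member higher at 24 h at an unadjusted p under 0.05 (6.41% of all probe sets called higher). Its log2 change was 0.24 ± 0.070 (SD, n = 3 pigs), higher in 3 of 3 pigs, with a limma adjusted p of 0.340. CTSZ, a carboxypeptidase, had a log2 change of 0.011 at 24 h.

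Between 24 h and 6 h, all 6 unadjusted calls were lower at 24 h (3.8% of all probe sets called lower): CAST with 3 probe sets, CTSS with 2 and LGMN. In 13 of the 26 probe sets the level was lower in 3 of 3 pigs, against 15.7% of all probe sets, and the median log2 change of the members was -0.11, against 0.011 over all probe sets. The 24 h arrays lay below the 6 h arrays without overlap in 4 members, CAPN10, CAST Ssc.235.3.A1_at, CTSS Ssc.17203.3.S1_at and CTSZ, against 3.99% of all probe sets. Without pig 1, 1 member was called lower, with 1.73% of all probe sets called, and without the 6 h array of pig 2, 2 were called lower, with 3.06%, and 1 higher. Without the pig block, 1 was called lower, with 1.38% of all probe sets called, and with the block as a random effect, 3 were, with 2.94%. With centring on the brightest 10% of probe sets, 3 members were called lower, with 2% of all probe sets, and 2 higher. With 1 probe set per gene, 2 of 16 members were called lower, with 4.72% of all probe sets called.

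Markers of other cell types were read beside these genes. Of 19 macrophage and leukocyte markers on the array, 0 passed the adjusted limma test at 24 h against 20 min. At an unadjusted p under 0.05, 7 were lower and 2 higher (6.67% and 6.41% of all probe sets). The mean was lower in 10 of the 19 and higher in 9, with a median log2 change of -0.12. Pig by pig, the mean log2 change of the list was -0.18 (pig 1), 0.012 (pig 2) and -0.75 (pig 3), and its mean level spanned 5.58 to 5.96 at 24 h, against 5.88 to 6.34 at 20 min. The log2 change was -1.63 for the complement gene C1QC, -1.29 for CD163, the haemoglobin scavenger receptor, -1.19 for VSIG4 and -1.01 for C1QA, each lower in 3 of 3 pigs. The limma adjusted p was 0.193 for C1QC, CD163 and C1QA and 0.210 for VSIG4.

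The 16 fibroblast and matrix markers had a mean level of 8.69 to 8.99 at 24 h and 8.65 to 9.37 at 20 min, the top value being pig 3 at 20 min. Their mean log2 change was 0.090 for pig 1, 0.045 for pig 2 and -0.47 for pig 3. The mean change of the 16 protease and inhibitor genes, each by its brightest probe set, was -0.049 for pig 1, -0.028 for pig 2 and -0.27 for pig 3. The part of these markers in the results for CTSS, CTSK, CTSC, CTSV and LGMN was not tested.

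RNA integrity was read from the control probe sets of EF1A, ACTB and GAPDH, as their 3′ level less their 5′ level, where a higher value means relatively more 3′ signal. For EF1A it was 0.86, 0.62 and 0.70 in pigs 1, 2 and 3 at 24 h, against 0.48, 0.63 and 0.23 at 20 min, and its highest value, 1.11, was in pig 2 at 2 h. For ACTB it was 2.46, 2.00 and 2.28 at 24 h, against 2.37, 2.23 and 2.33 at 20 min, and for GAPDH it was -0.17, -0.21 and -0.16 at 24 h, against -0.23, -0.22 and -0.20 at 20 min. At 24 h the value was thus higher in pigs 1 and 3 and about level in pig 2 for EF1A, higher in pig 1 and lower in pigs 2 and 3 for ACTB, and higher by under 0.1 in all 3 pigs for GAPDH. The part of RNA integrity in the 24 h values was not tested.

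**Figure D5:**
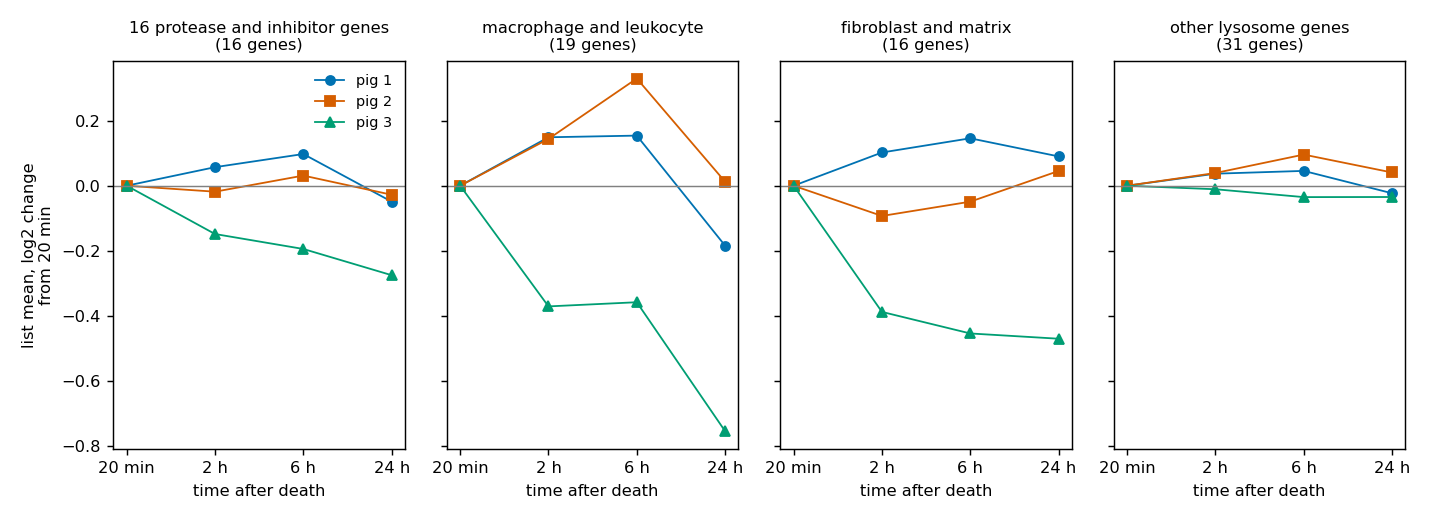
The mean log2 change from 20 min (y axis) over time after death (x axis) of 4 lists, 1 line per pig: the 16 protease and inhibitor genes by their brightest probe sets, 19 macrophage and leukocyte markers, 16 fibroblast and matrix markers and 31 other lysosome genes. Pig 3 is lowest in the first 3 panels at 24 h, at -0.27, -0.75 and -0.47, while the lysosome genes stay within 0.1 of 0 in all pigs.

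Other lysosome genes were balanced between higher and lower. Of 31 on the array, 0 passed the adjusted limma test at 24 h against 20 min. At an unadjusted p under 0.05, 3 were lower and 3 higher (6.67% and 6.41% of all probe sets). The median log2 change was 0.0041, against 0.0082 over all probe sets. The lowest p-values belonged to GUSB, beta-glucuronidase, at -0.36, TPP1, a tripeptidyl peptidase, at 0.30, SCARB2, a lysosomal membrane protein, at -0.25, and LIPA, lysosomal acid lipase, at -0.49. The limma adjusted p lay between 0.257 and 0.280 for these 4.

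Of 7 cystatins and other inhibitors of cysteine proteases on the array, 0 passed the adjusted limma test at 24 h, and at an unadjusted p under 0.05, 1 was lower and 1 higher. For this list and those that follow here, 6.67% of all probe sets were called lower and 6.41% higher at that unadjusted p. A2M, a broad protease inhibitor of plasma, had a log2 change of 0.43, and SERPINB1, an inhibitor of neutrophil proteases, of -0.28. Of 11 caspases and other proteases, 0 passed, and 2 were lower and 1 higher at an unadjusted p under 0.05: the aminopeptidases BLMH at -0.28 and ANPEP at -0.33, and CASP2 at 0.24. Of 19 calpain substrates and partners in the sarcomere, 0 passed, and at an unadjusted p under 0.05, 1 was lower and 3 higher: vinculin (VCL) at -0.20, and MYBPC1 at 0.25, TNNI1 at 0.29 and DES, desmin, at 0.19.

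The genes most like CAPN3, CTSC and LGMN over time were sought by the correlation of pig-centred levels over the 12 arrays, among 6424 to 6427 named probe sets above the median level. CAPN3 Ssc.26608.1.A1_at was most like DNAJA1 (r = 0.930), TPM2 (r = 0.916) and MMADHC (r = 0.881). CTSC Ssc.8528.3.S1_at was most like RPL32 (r = 0.977), OLA1 (r = 0.966) and DYNC2LI1 (r = 0.962). LGMN was most like ISG20L2 (r = 0.948), P4HA2 (r = 0.938) and LRRC59 (r = 0.928). The arrays come from 3 pigs and are not independent, and with so many probe sets compared, values this high are given as a description only.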

How the data were processed

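Total RNA of 12 muscle portions was labelled with biotin and hybridised to porcine arrays, 1 per portion, per the labels' protocols. The authors deposited 1 log2 intensity per probe set and array. The submitters' processing notes name RMA and the affy package, with the versions not given in the sources used here. RMA corrects background, quantile-normalises and summarises probes; sorted array values differed from their mean by at most 0.126. Precision is limited by how few arrays there are.

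The table holds 24123 probe sets; the 124 controls were dropped and 23999 tested with no filter on level. Symbols came from GEO's platform annotation, which can be old, and genes were named only from the 10099 probe sets with 1 symbol. All 16 genes matched the Sscrofa11.1 RefSeq gene table by gene ID with the same symbol; 1 probe set naming CTSF beside another gene was not used. Coordinates and sequences are not given.

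Groups and pig numbers came from the sample titles. In R 4.3.3, limma 3.58.1 (with statmod 1.5.0) fitted 1 linear model of all 12 arrays with time and a fixed pig block (6 residual and 5.67 prior degrees of freedom). Two-sided p-values were adjusted by Benjamini-Hochberg separately for each comparison and judged at 0.05. The model was also run on simulated data with independent noise, as a check of the code only. That run does not show how well changes as small as those of the members would be found. The design text says that the same animals were sampled at each time, and deviations from the time means correlated with r between 0.409 and 0.656 in the 18 pairs of arrays of 1 pig. Portions of 1 animal at different times and 3 animals give the spread, so p-values speak of these animals.

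The members and gene lists were chosen with earlier results of these data known. Values on every array are given for CAPN1, CAPN2, CAPN3, CAST, CTSB, CTSC, CTSD, CTSV and LGMN, and for other members with an unadjusted F test p under 0.05 or such a p in 2 comparisons with 20 min; CTSS Ssc.17203.1.A1_at is added as the brightest of its gene. Up to 4 genes are named per list, those of smallest p. Alternatives tried were no or a random block, other normalisations, filters, priors and array weights, 1 probe set per gene, only the arrays compared, and each pig or array left out.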

Additional observations from a re-analysis of the deposited data

How the results depend on the processing

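The 3 animals limit what can be detected, and 0 of 36 member values passed the adjusted limma test in any of 840 refits. Of these, 817 kept direction and side of the threshold and 23 turned the direction, in 7 values. The values were all member changes at 24 h against 20 min, and other changes only where the unadjusted limma p was under 0.05. Many refits could not turn a direction, so 817 of 840 is not a measure of stability. Changes of block, prior or filter, 1 probe set per gene and the compared arrays alone leave a log2 change as it was. So does leaving out an array of a time not compared. The pairing by pig mattered to the counts: without the replicate block, 0 (2 h), 0 (6 h), 1 (24 h), 1 (24 h against 6 h) and 0 (F test) members were called at an unadjusted p under 0.05, and 0 probe sets passed at 24 h and in the F test. With the block as a random effect (correlation 0.287) the counts were 1, 1, 6, 3 and 3, and again 0 and 0. Without the block, 2.42% of all probe sets were called lower at 24 h and 1.38% at 24 h against 6 h. With the random block, these shares were 4.97% and 2.94%. With 1 probe set per gene, and so 16 members tested, the member counts were 0, 0, 4, 2 and 2, and 18.8% were lower at 24 h, against 9.8% of all. Without the dimmest 40% of probe sets, 1 member was called at 2 h and 1 at 6 h, and 0 probe sets passed the F test, as with cyclic loess. Array weights gave 1 probe set and 4 members at 6 h, and a CAPN3 Ssc.26608.1.A1_at change of -0.038. CAST Ssc.235.2.S1_at was 0.0076 with cyclic loess and 0.0072 when centred on the brightest 10%. With only the arrays of the compared times, 0 probe sets passed at 24 h and 4 at 24 h against 6 h, and 1 member was called at 6 h against 2 h. An unadjusted p in place of the adjusted one gave 2, 2, 11, 6 and 5 members in place of 0. The CTSC change at 24 h was -0.40 as the mean of all probe sets and -0.17 in the brightest. Leaving out each pig or array in turn, 0 to 29 probe sets passed at 2 h, 0 to 46 at 6 h, 0 to 40 at 24 h, 0 to 9 at 24 h against 6 h and 0 to 4 in the F test; each maximum but that of 24 h against 6 h came without the 20 min array of pig 1. Members at an unadjusted p under 0.05 then numbered 1 to 6 at 2 h, 2 to 7 at 6 h, 3 to 11 at 24 h, 0 to 2 at 6 h against 2 h, 1 to 9 at 24 h against 6 h and 3 to 8 in the F test. In the same refits, 3.74% to 7.98% of all probe sets were called lower at 24 h, and 1.73% to 5.58% at 24 h against 6 h. No such share is given for the other comparisons, so their member counts are a description only. The 24 h changes that turned direction ranged from -0.0096 to 0.090 for CAPN1, -0.074 to 0.28 for CAPN3 Ssc.26608.1.A1_at, -0.21 to 0.044 for CAPN7, -0.17 to 0.058 for CAST Ssc.235.2.S1_at, -0.31 to 0.053 for CTSS Ssc.17203.2.S1_at, -0.32 to 0.057 for CTSH and -0.061 to 0.11 for CTSZ. The cause was not tested.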

Other observations

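Markers of fat and vessel cells, which a portion of whole muscle also holds, were read at 24 h against 20 min. At an unadjusted p under 0.05, 6.67% of all probe sets were called lower and 6.41% higher. Of 10 adipocyte markers on the array, 0 passed the adjusted limma test, and 3 were lower and 2 higher at an unadjusted p under 0.05. ADIPOQ, which encodes adiponectin, had a log2 change of -0.99, lower in 2 of 3 pigs, while PNPLA2, the adipose triglyceride lipase, had 0.45 and LPL, lipoprotein lipase, 0.43, both higher in 3 of 3 pigs. The limma adjusted p was 0.213 for PNPLA2 and 0.260 for LPL and ADIPOQ. Of 11 endothelial markers, 0 passed, and 0 were lower and 1 higher at an unadjusted p under 0.05: ENG, endoglin, at 0.32, higher in 3 of 3 pigs.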
